A study of Homo sapiens with 24 samples.

Results

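Interferon-stimulated genes were followed in Caki-1 and 769-P, established human renal cell carcinoma lines, after exposure to dasatinib, an inhibitor of the ABL and SRC family tyrosine kinases. The members were a list of 41 genes, read from the probe sets whose platform annotation names them, with RIGI listed there under its older symbol DDX58. Of these, 39 had a probe set that names no other gene, out of 18132 genes with such a probe set on the array. STAT2 and USP18 had none and were not analysed here. Each gene was read from its brightest such probe set by the mean over all arrays.

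Type I and type III interferons bind receptors whose JAK kinases signal to ISGF3, a complex that contains STAT2 and IRF9. ISGF3 enters the nucleus and binds interferon-stimulated response elements in the promoters of genes that block virus entry, translation and replication. Interferon gamma acts on genes with gamma-activated sites. Several of the products, among them IRF7, IRF9 and the RNA sensors RIGI and IFIH1, are themselves parts of the pathways that make or relay interferon, and many of the genes have a basal level in epithelial cells with no interferon added.

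The data were 24 PrimeView arrays, with 3 arrays in each of 8 groups. In each line the groups were DMSO, the solvent control, and dasatinib at 1 µM for 6, 12 or 24 h. Arrays of a group are labelled as biological replicates. The labels name no interferon among the treatments and give no time for the DMSO arrays. The same 3 DMSO arrays of a line therefore served as control at every time, comparisons within a line share them, and hours of drug cannot be told apart from hours in culture. P-values measure the spread between these arrays, and with whole cultures a change in level cannot be told apart from a change in the share of cells that carry the transcript. No array stood apart by its median or its correlation within the group. Array medians lay between 6.01 and 6.08 on the deposited log2 scale, and arrays of a group correlated at 0.993 to 0.997 over probe sets. Single members could still differ within a group, as IFITM1 and ISG20 did in Caki-1 at 12 h, where replicate 1 read lowest. All 7 renal epithelial markers with a single-gene probe set, among them PAX8 and KRT18, lay above the filter on dim genes in both lines, as did 3 of 6 leukocyte markers in Caki-1 (CD3E, CD14 and CSF1R) and 2 of 6 in 769-P (CD3E and CSF1R), while PTPRC lay below it.

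The promoters were set beside the values because ISGF3 acts on a known DNA element. RefSeq windows of 300 bases around the transcription start (GRCh38.p14) were found for 33 of the 41 members, and not for IFIT2, MX2, OAS2, OASL, IRF7, USP18, TRIM22 and GBP2. The core of the interferon-stimulated response element, spelled GAAA, 2 bases of any kind and GAAA, was searched on both strands. It stood in 23 of the 33 members (69.7%) and in 4.15% of the 14425 genes that have both a window and a single-gene probe set. The letters TTCNNNGAA, the gamma-activated site, stood in 9 of the 33 members (27.3%) and in 9.23% of those genes. The element cores counted for DTX3L and PARP9 are the same bases, read on opposite strands of overlapping windows. Windows of 2 members with a large change at 24 h, IFITM1 and ISG20, are printed from 250 bases before the start to 20 bases after it, with the element core in capitals. IRF9 was added after its values were seen, and its capitals mark TTCNNNGAA, since its window holds no element core.
IFITM1, chr11:313790-314059, + strand: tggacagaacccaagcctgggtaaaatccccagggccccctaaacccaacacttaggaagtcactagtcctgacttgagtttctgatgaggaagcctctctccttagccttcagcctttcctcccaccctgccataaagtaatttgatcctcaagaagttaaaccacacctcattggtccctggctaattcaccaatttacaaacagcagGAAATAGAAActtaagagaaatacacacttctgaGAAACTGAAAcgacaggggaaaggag
ISG20, chr15:88638766-88639035, + strand: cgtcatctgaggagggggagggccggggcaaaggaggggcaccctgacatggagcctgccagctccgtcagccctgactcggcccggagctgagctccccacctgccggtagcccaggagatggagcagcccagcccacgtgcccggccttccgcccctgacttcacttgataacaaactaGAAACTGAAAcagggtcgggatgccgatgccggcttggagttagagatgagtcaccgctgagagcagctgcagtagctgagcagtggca
IRF9, chr14:24161015-24161284, + strand: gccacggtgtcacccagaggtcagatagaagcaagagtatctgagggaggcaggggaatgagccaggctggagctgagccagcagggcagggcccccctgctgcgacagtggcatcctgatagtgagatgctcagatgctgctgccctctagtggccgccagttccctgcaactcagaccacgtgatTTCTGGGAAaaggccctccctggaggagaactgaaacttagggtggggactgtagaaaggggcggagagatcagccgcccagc
The IFITM1 window held the element core at 2 places, with first bases at -40 and -6 from the start, and 1 TTCNNNGAA that overlaps 3 bases of the nearer one. The ISG20 window held 1, with its first base at -69. These are matches of letters, and nothing on binding was measured.

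Basal levels under DMSO were compared between the lines. Of the 34 members above the filter in at least 1 line, 14 were higher in Caki-1 and 8 were higher in 769-P, while over all 12864 genes compared 28.8% were higher in Caki-1 and 29.9% higher in 769-P. The members called in either direction were thus near the share of all genes. HERC5, the ligase that attaches ISG15 to newly made proteins, had by far the largest difference of the members. Its DMSO arrays read 9.48, 9.59 and 9.54 in Caki-1 and 3.99, 5.14 and 4.19 in 769-P. The groups lay far apart, but the 769-P level was under the filter, so the size of the difference, 5.10 ± 0.206 on the log2 scale (± gives the standard error of the moderated test, 3 arrays a group, adjusted p = 1.32e-16), rests on a dim signal. Caki-1 was also higher in HERC6, a relative of HERC5 (1.79 ± 0.165, adjusted p = 1.07e-09), in IFI44L (1.75 ± 0.197), in the E3 ligase TRIM22 (1.68 ± 0.101) and in OAS1, which makes the 2′-5′ oligoadenylates that activate RNase L (1.29 ± 0.128). In the other direction stood the guanylate-binding proteins GBP1 (-1.79 ± 0.178, adjusted p = 4.06e-09) and GBP2 (-1.51 ± 0.151), the RNA sensor IFIH1 (-1.38 ± 0.151), SAMD9 (-0.71 ± 0.127) and TRIM21 (-0.63 ± 0.123). The lower group was under the filter for IFI44L in 769-P and for GBP2 and IFIH1 in Caki-1, so these differences also rest on a dim signal. The factors were closer: IRF9 differed by -0.09 ± 0.115 (adjusted p = 0.518), IRF1 by 0.25 ± 0.112 (adjusted p = 0.0544) and IRF7 by -0.47 ± 0.0997, which passed the test (adjusted p = 0.000244).

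**Figure D1:**
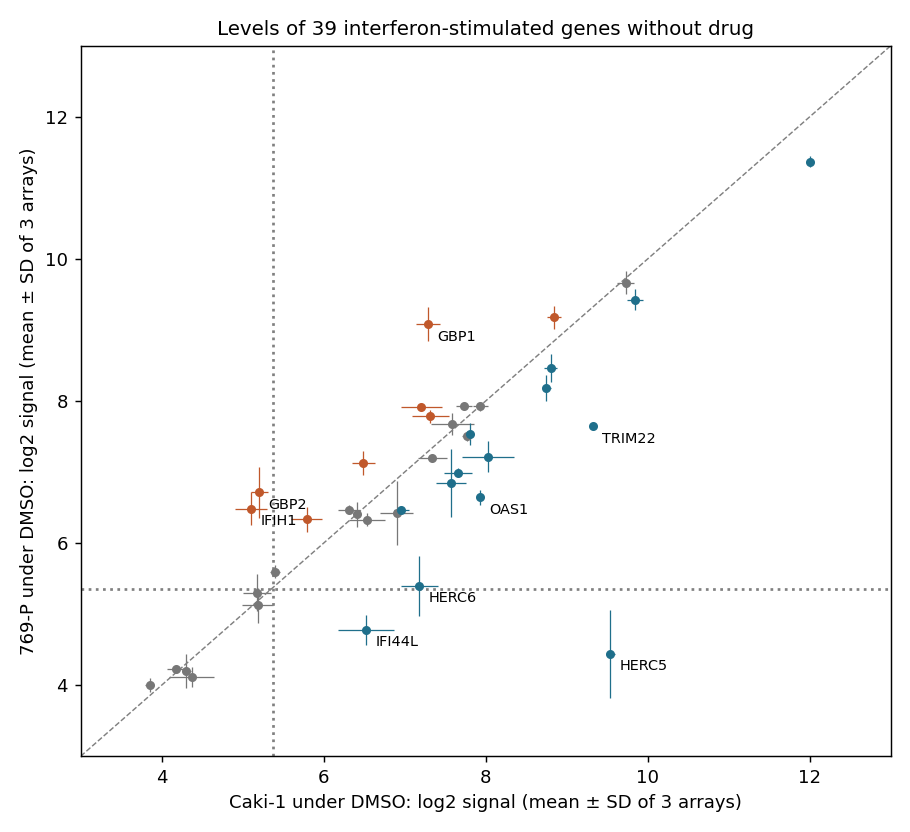
Basal level of the members under DMSO in Caki-1 and 769-P, with the mean log2 signal of each member in Caki-1 on the horizontal and in 769-P on the vertical axis, error bars of 1 SD (3 arrays), and dotted lines at the filter. HERC5 lies at 9.54 against 4.44, the widest gap, while IRF9 lies at 7.59 and 7.68.

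Some members stayed dim throughout. The GTPases MX1 and MX2, the radical SAM enzyme RSAD2 (viperin), the tetherin gene BST2 and OAS3 were below the filter in both lines, and HERC5 and IFI44L also in 769-P. No array of these 5 genes in Caki-1 exceeded 5.42, and no array of the 7 in 769-P exceeded 5.60, under DMSO or dasatinib. MX1 averaged 4.31 ± 0.059 (SD, n = 3) under DMSO in Caki-1 and 4.60 after 24 h. MX1, RSAD2, BST2 and OAS3 all have the element core in their windows. The filter left 34 members for testing in Caki-1 and 32 in 769-P. IFIH1, ISG20 and GBP2 passed in Caki-1 with DMSO means under the filter, as did ISG20 in 769-P, so a rise was the only large change open to them.

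After dasatinib more members were higher than lower at every time in both lines. In Caki-1, 9 of 34 were higher and 1 lower at 6 h, when 12.3% of all genes tested were higher and 14% lower. At 12 h 19 were higher and 1 lower, beside 24.1% and 24.4% of all genes. At 24 h 19 were higher and 2 lower, beside 32.9% and 29.9%. In 769-P, 11 of 32 were higher and 2 lower at 6 h, beside 16.4% and 14.5% of all genes. At 12 h 19 were higher and 1 lower, beside 24.9% and 22.6%, and at 24 h 19 were higher and 3 lower, beside 31.1% and 24.6%. The large background means that single calls at 24 h carry little by themselves. Median changes of the tested members were 0.15, 0.31 and 0.30 in Caki-1 and 0.15, 0.42 and 0.38 in 769-P at 6, 12 and 24 h, beside 0.0086, 0.045 and 0.079 and 0.025, 0.018 and 0.039 over all genes. The lowest count without 1 array was 5 members called at 6 h in Caki-1, without replicate 2 of the 6 h group. It was 6 without replicate 1 of that group or without replicate 2 or 3 of DMSO, against 10 with all arrays.

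**Figure D2:**
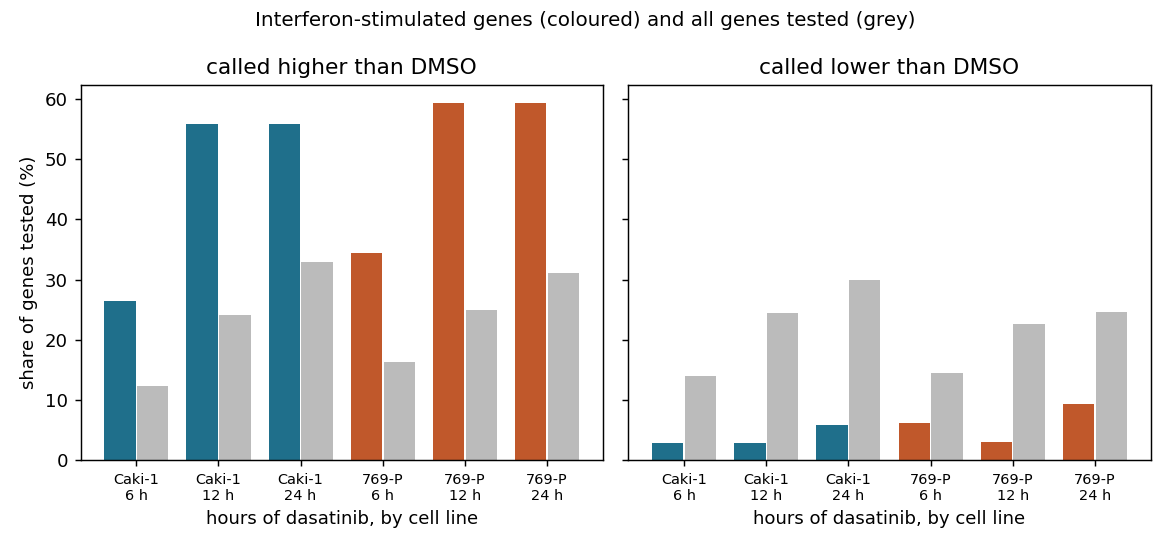
Percent of tested genes called higher or lower than DMSO (limma, adjusted p under 0.05) at 6, 12 and 24 h in each line, for the members and for all genes tested. The members called higher rise from 9 of 34 to 19 of 34 in Caki-1 and from 11 of 32 to 19 of 32 in 769-P, and those called lower number 1 to 3.

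Most rises were small. Those called and at least 2-fold numbered 1, 5 and 5 in Caki-1 at 6, 12 and 24 h, when 0.998%, 2.7% and 5.39% of all genes were, and 3, 6 and 4 in 769-P, beside 1.84%, 3.62% and 6.46%. Higher at all 3 times were GBP2, IFIH1, IFIT1, IRF7, IRF9, ISG20 and RIGI in Caki-1. In 769-P these were GBP2, IFIH1, IFIT1, IFIT2, IRF7, IRF9, ISG15, PARP14, PARP9, RIGI and SAMD9. In Caki-1, GBP2, IFIH1 and ISG20 had DMSO means under the filter, so a rise was the only large change open to them. GBP2 and ISG20 are also among the 2-fold rises there. The share of all genes higher at all 3 times was not counted. IFIT3, OAS2 and the pro-apoptotic gene XAF1 passed the test at none of the times in either line.

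**Figure D3:**
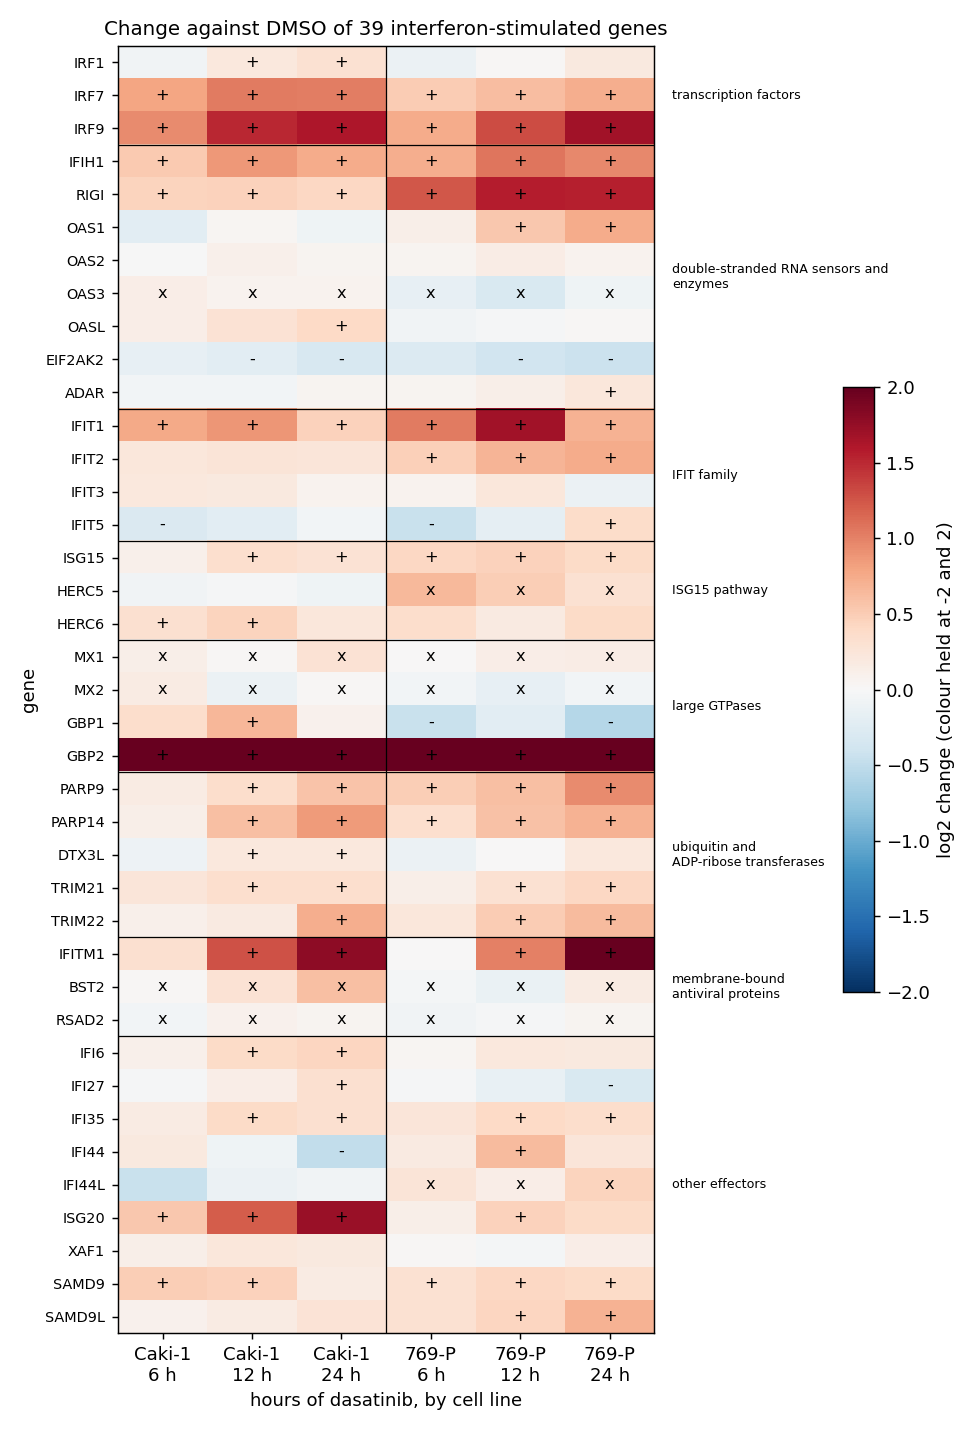
Log2 change from DMSO of each member at 6, 12 and 24 h in Caki-1 and 769-P, ordered by role, marked + where called higher, - where called lower and x where not tested. GBP2 has the largest rise, 4.43 in Caki-1 and 3.59 in 769-P at 24 h, and EIF2AK2 falls in both lines.

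Among the transcription factors, IRF9, the DNA-binding subunit of ISGF3, rose at every time in both lines. In Caki-1 its arrays read 7.89, 7.46 and 7.41 under DMSO, 8.65, 8.50 and 8.43 at 6 h, 9.03, 9.15 and 9.10 at 12 h, and 9.23, 9.20 and 9.20 at 24 h. In 769-P they read 7.58, 7.60 and 7.86 under DMSO, 8.37, 8.29 and 8.63 at 6 h, 8.83, 9.13 and 9.005 at 12 h, and 9.40, 9.23 and 9.43 at 24 h. Every treated array lay above every DMSO array of its line. The change was 0.94 ± 0.109 at 6 h and 1.62 ± 0.109 at 24 h in Caki-1 (3.08-fold, adjusted p = 7.44e-09), and 0.75 ± 0.112 and 1.67 ± 0.112 in 769-P (3.19-fold, adjusted p = 4.31e-09). The gene lies at chr14:24161265-24166565, and its other 3 single-gene probe sets were also higher at 24 h, by 0.74 to 1.42 in Caki-1 and by 0.68 to 1.68 in 769-P.

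IRF7, the factor that drives interferon alpha genes, rose by 0.79 ± 0.113, 1.04 ± 0.113 and 1.03 ± 0.113 in Caki-1 at 6, 12 and 24 h (adjusted p = 1.40e-06 at 24 h). In 769-P it rose by 0.51 ± 0.085, 0.61 ± 0.085 and 0.73 ± 0.085 (adjusted p = 2.03e-06 at 24 h). IRF1, an early target of interferon gamma, moved less. It rose by 0.22 ± 0.079 at 12 h (adjusted p = 0.0357) and 0.30 ± 0.079 at 24 h (adjusted p = 0.00372) in Caki-1, after -0.07 ± 0.079 at 6 h (adjusted p = 0.62). Its values in 769-P were -0.12 ± 0.133, 0.03 ± 0.133 and 0.19 ± 0.133, none past the test (adjusted p = 0.583, 0.897 and 0.254). The 12 h call of IRF1 in Caki-1 was lost under 4 of the alternatives tried and when any of 5 of its 6 arrays was left out.

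Among the sensors and enzymes of double-stranded RNA, 3 of 7 tested rose and 1 fell at 24 h in Caki-1, and 4 rose and 1 fell in 769-P, beside 32.9% and 31.1% of all genes higher. RIGI, the helicase that recognises RNA with a 5′ triphosphate, started level in both lines and rose further in 769-P. Its array values, shown because of this difference and so chosen after they were seen, were 8.05, 7.90 and 7.86 under DMSO and 8.49, 8.13 and 8.45 at 24 h in Caki-1, and 7.91, 7.88 and 7.999 under DMSO and 9.59, 9.45 and 9.40 at 24 h in 769-P. Treated and DMSO arrays did not overlap in either line. RIGI rose by 0.45 ± 0.130, 0.46 ± 0.130 and 0.42 ± 0.130 in Caki-1 at 6, 12 and 24 h (adjusted p = 0.0118 at 24 h), and by 1.24 ± 0.105, 1.57 ± 0.105 and 1.55 ± 0.105 in 769-P (adjusted p = 4.69e-09). IFIH1, the sensor MDA5 for long double-stranded RNA, rose by 0.52 ± 0.146, 0.86 ± 0.146 and 0.74 ± 0.146 in Caki-1 and by 0.72 ± 0.144, 1.07 ± 0.144 and 0.97 ± 0.144 in 769-P. The kinase EIF2AK2 (PKR), which stops translation on double-stranded RNA, went the other way. It fell by 0.20 ± 0.075 at 12 h (adjusted p = 0.0355, with overlapping arrays) and 0.32 ± 0.075 at 24 h (adjusted p = 0.00172) in Caki-1, and by 0.38 ± 0.120 (adjusted p = 0.015) and 0.43 ± 0.120 (adjusted p = 0.00619) in 769-P. OAS1 rose in 769-P at 12 and 24 h, by 0.53 ± 0.111 and 0.74 ± 0.111. In Caki-1, where its basal level was the higher, it passed the test at none of the times. OASL rose in Caki-1 at 24 h (0.40 ± 0.161, adjusted p = 0.0418), and the RNA editor ADAR rose in 769-P at 24 h (0.23 ± 0.058, adjusted p = 0.00335).

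The IFIT proteins, which bind foreign RNA ends and block its translation, are encoded side by side on chromosome 10. They did not move together. IFIT1 rose by 0.75 ± 0.178, 0.88 ± 0.178 and 0.46 ± 0.178 in Caki-1 at 6, 12 and 24 h, the last with overlapping arrays, and by 1.04 ± 0.110, 1.67 ± 0.110 and 0.69 ± 0.110 in 769-P, where its group means were 7.22 under DMSO and 8.25, 8.89 and 7.91 after treatment. IFIT2 rose in 769-P by 0.47 ± 0.090, 0.68 ± 0.090 and 0.75 ± 0.090, and passed the test at none of the times in Caki-1. A second, dimmer IFIT2 probe set changed by -0.14 in 769-P at 24 h and did not share that rise. IFIT5 was lower at 6 h, by -0.29 ± 0.10 in Caki-1 (adjusted p = 0.0439) and -0.44 ± 0.115 in 769-P (adjusted p = 0.00758), and higher at 24 h in 769-P (0.37 ± 0.115, adjusted p = 0.0115).

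The ubiquitin-like protein ISG15 rose in Caki-1 at 12 h (0.34 ± 0.070) and 24 h (0.29 ± 0.070, adjusted p = 0.00226) and in 769-P at all times (0.42 ± 0.114, 0.46 ± 0.114 and 0.38 ± 0.114, adjusted p = 0.0104 at 24 h). HERC5 in Caki-1 stayed between group means of 9.46 and 9.54. HERC6 rose in Caki-1 at 6 h (0.31 ± 0.110, adjusted p = 0.0479) and 12 h (0.45 ± 0.110), and stood at 0.23 ± 0.110 at 24 h (adjusted p = 0.0779).

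GBP2, an interferon-inducible GTPase that coats vacuoles and membranes of intracellular pathogens, had the largest change of all members in every comparison with DMSO. In Caki-1 its arrays read 5.31, 5.10 and 5.21 under DMSO, 7.40, 6.94 and 7.31 at 6 h, 8.78, 9.18 and 9.08 at 12 h, and 9.67, 9.68 and 9.57 at 24 h. In 769-P they read 6.31, 6.81 and 7.02 under DMSO, 8.46, 8.88 and 8.93 at 6 h, 9.91, 9.71 and 9.88 at 12 h, and 10.16, 10.44 and 10.31 at 24 h. In neither line did arrays of any 2 of these groups overlap. GBP2 rose by 2.01 ± 0.125, 3.81 ± 0.125 and 4.43 ± 0.125 in Caki-1, the last 21.6-fold (adjusted p = 7.47e-12), and by 2.04 ± 0.157, 3.12 ± 0.157 and 3.59 ± 0.157 in 769-P, the last 12.04-fold (adjusted p = 2.70e-11). Its second probe set rose by 3.42 and 3.08 at 24 h. The Caki-1 DMSO level was under the filter, so that fold depends on a dim control. GBP1, its neighbour on chromosome 1 at chr1:89052319-89065208 beside chr1:89106132-89126114, did not follow it. GBP1 rose in Caki-1 at 12 h (0.66 ± 0.169, adjusted p = 0.00435) and stood at 0.09 ± 0.169 at 24 h (adjusted p = 0.658). In 769-P it was lower at 6 h (-0.45 ± 0.162, adjusted p = 0.0463) and at 24 h (-0.58 ± 0.162, adjusted p = 0.00645, with overlapping arrays).

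Of the ubiquitin and ADP-ribose transferases other than HERC5 and HERC6, 5 of 5 rose in Caki-1 and 4 of 5 in 769-P at 24 h, beside 32.9% and 31.1% of all genes. The ligases left out of this count, given with ISG15 above, did not share the rise at 24 h. HERC6 was called in neither line, and HERC5 was not called in Caki-1 and not tested in 769-P. PARP14, a mono-ADP-ribosyltransferase, rose by 0.85 ± 0.079 in Caki-1 (adjusted p = 2.30e-07) and 0.69 ± 0.089 in 769-P. PARP9, its partner in a complex with the ligase DTX3L, rose by 0.57 ± 0.090 and 0.95 ± 0.1004. DTX3L itself rose by 0.21 ± 0.079 in Caki-1 (adjusted p = 0.0303) and stood at 0.21 ± 0.102 in 769-P (adjusted p = 0.0977). TRIM22 rose by 0.73 ± 0.096 and 0.63 ± 0.103, and TRIM21, the cytosolic antibody receptor, by 0.34 ± 0.134 and 0.42 ± 0.107.

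IFITM1, a membrane protein that hinders the fusion of enveloped viruses, was the one tested gene of the membrane-bound class and rose late. In Caki-1 its arrays read 7.04, 6.67 and 7.004 under DMSO, 7.10, 7.27 and 7.31 at 6 h, 7.68, 8.38 and 8.47 at 12 h, and 8.27, 8.94 and 8.87 at 24 h. In 769-P they read 5.92, 6.78 and 6.58 under DMSO, 6.13, 6.59 and 6.58 at 6 h, 7.06, 7.67 and 7.57 at 12 h, and 8.49, 8.60 and 8.85 at 24 h. In 769-P the 6 h arrays lay within the range of the DMSO arrays, while all 12 and 24 h arrays lay above it in both lines. The change at 6 h was 0.32 ± 0.199 in Caki-1 (adjusted p = 0.274) and 0.0063 ± 0.207 in 769-P (adjusted p = 0.988). It was 1.27 ± 0.199 and 1.00 ± 0.207 at 12 h, and 1.79 ± 0.199 (3.46-fold, adjusted p = 1.50e-06) and 2.22 ± 0.207 (4.66-fold, adjusted p = 1.74e-07) at 24 h. A second probe set rose by 1.77 and 2.04. The related genes IFITM2 and IFITM3, also on chromosome 11, rose at 24 h too, IFITM2 by 0.64 ± 0.088 in Caki-1 and 0.71 ± 0.085 in 769-P, and IFITM3 by 1.24 ± 0.081 and 0.88 ± 0.112. Cross-hybridisation between them was not tested.

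ISG20, an exonuclease that degrades single-stranded RNA, rose mainly in Caki-1. Its arrays there read 5.40, 5.14 and 5.02 under DMSO, 5.82, 5.81 and 5.57 at 6 h, 5.92, 6.67 and 6.58 at 12 h, and 6.88, 6.87 and 6.99 at 24 h. In 769-P they read 5.32, 4.85 and 5.22 under DMSO, 5.54, 4.91 and 5.28 at 6 h, 5.35, 5.79 and 5.65 at 12 h, and 5.45, 5.50 and 5.58 at 24 h. The Caki-1 groups lay above DMSO at each time, and the 769-P groups at 12 and 24 h, by a narrow gap at values near the filter. The change was 0.55 ± 0.166, 1.21 ± 0.166 and 1.73 ± 0.166 in Caki-1 (3.32-fold at 24 h, adjusted p = 3.28e-07), and 0.12 ± 0.166, 0.47 ± 0.166 (adjusted p = 0.0304) and 0.38 ± 0.166 (adjusted p = 0.0618) in 769-P. Both DMSO means were under the filter, so the size of these changes depends on a dim control.

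**Figure D4:**
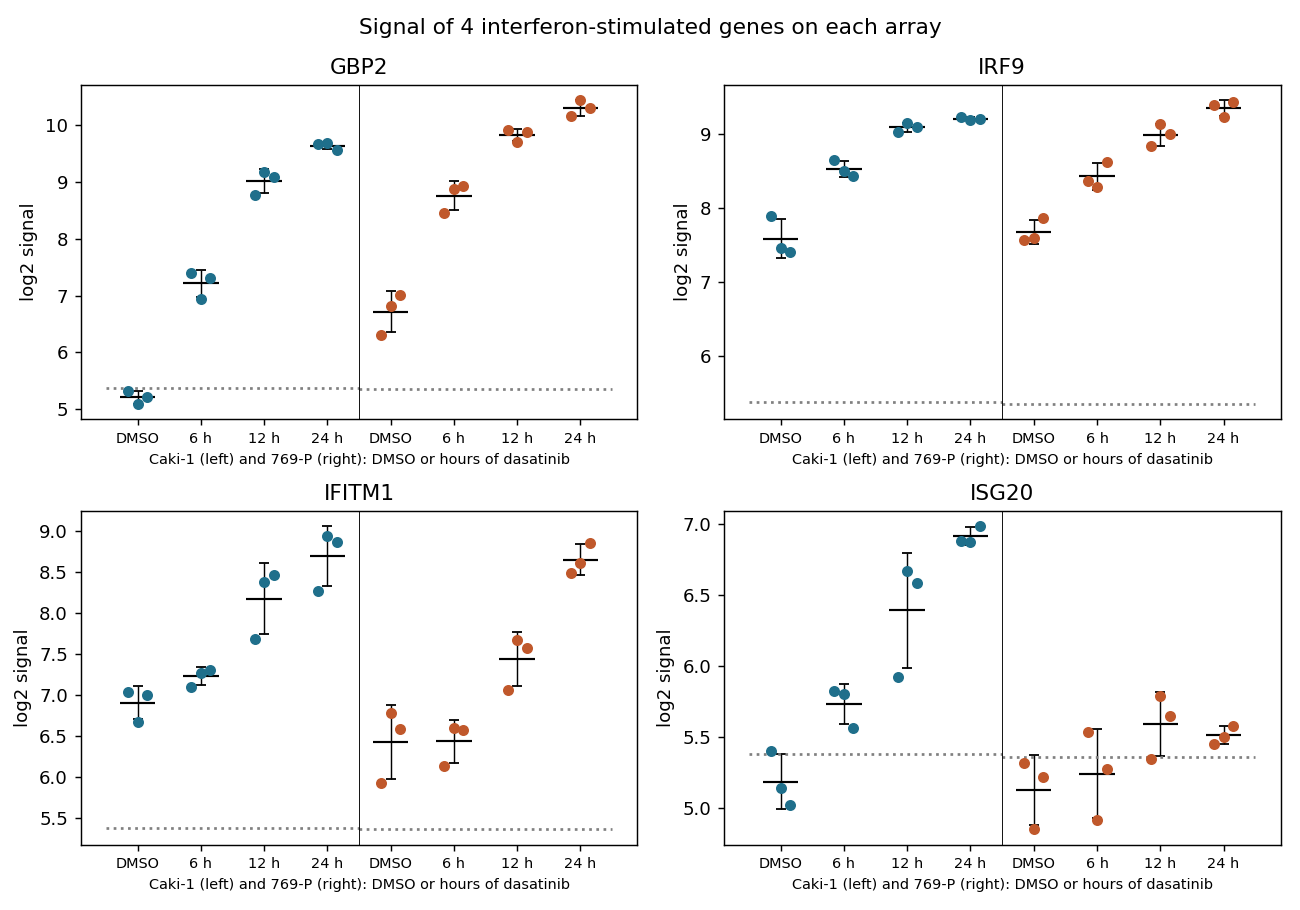
Log2 signal of GBP2, IFITM1, ISG20 and IRF9 on every array, by group in each line, with the group mean as a line, its SD as an error bar and the filter dotted. GBP2 rises at each step from 5.21 to 9.64 in Caki-1 and from 6.71 to 10.30 in 769-P, IFITM1 rises from 12 h on, and ISG20 reaches 6.92 in Caki-1 against 5.51 in 769-P.

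Of the other effectors, 4 of 9 tested rose and 1 fell at 24 h in Caki-1, and 3 of 8 rose and 1 fell in 769-P, near the 32.9% and 31.1% of all genes that were higher. IFI35 rose in both lines (0.32 ± 0.077 and 0.35 ± 0.119). IFI27, a mitochondrial protein, rose in Caki-1 (0.32 ± 0.107, adjusted p = 0.0175) and was lower in 769-P (-0.30 ± 0.119, adjusted p = 0.0407), but its second probe set changed by 0.61 and 0.17, so the fall in 769-P rests on 1 probe set. IFI44 was lower at 24 h in Caki-1 (-0.49 ± 0.193, adjusted p = 0.0387) and higher at 12 h in 769-P (0.63 ± 0.194, adjusted p = 0.013), with overlapping arrays in both. SAMD9 and SAMD9L, antiviral paralogs, rose at 24 h in 769-P by 0.38 ± 0.082 and 0.69 ± 0.131.

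Dasatinib at 24 h was also compared with dasatinib at 6 h, which does not use the DMSO arrays. In Caki-1 13 of 34 members were higher and 1 lower at 24 h, beside 28.1% and 25.6% of all genes tested. In 769-P 15 of 32 were higher and 1 lower, beside 25.8% and 18.5%. GBP2 rose by a further 2.43 ± 0.125 in Caki-1, followed by IFITM1 (1.47 ± 0.199), ISG20 (1.18 ± 0.166), PARP14 (0.73 ± 0.079) and IRF9 (0.68 ± 0.109). In 769-P IFITM1 led with 2.21 ± 0.207 (4.64-fold, adjusted p = 3.66e-07), followed by GBP2 (1.55 ± 0.157), IRF9 (0.92 ± 0.112), IFIT5 (0.82 ± 0.115) and OAS1 (0.63 ± 0.111). IRF7 rose in 769-P (0.22 ± 0.085, adjusted p = 0.0456) and stood at 0.24 ± 0.113 in Caki-1 (adjusted p = 0.0892). IRF1 rose in Caki-1 (0.37 ± 0.079, adjusted p = 0.00112) and stood at 0.31 ± 0.133 in 769-P (adjusted p = 0.0773). Falling from 6 to 24 h were IFI44 in Caki-1 (-0.69 ± 0.193, adjusted p = 0.0073, with overlapping arrays) and IFIT1 in 769-P (-0.35 ± 0.110, adjusted p = 0.0172). Without replicate 1 of the 769-P 24 h group, 9 members passed in place of 16.

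The lines, which share no arrays, were set side by side at 24 h. Of the 32 members tested in both at 24 h, 13 were higher in both (IFIT1, IFITM1, IFI35, IFIH1, RIGI, ISG15, IRF7, IRF9, PARP9, PARP14, TRIM21, TRIM22 and GBP2) and EIF2AK2 was lower in both. Of the 11913 genes tested in both lines, 20% were higher in both and 19.2% lower in both. IFI27 was called in opposite directions. IFI6, ISG20, OASL, IRF1 and DTX3L were called higher in Caki-1 alone, IFIT2, IFIT5, OAS1, SAMD9, SAMD9L and ADAR in 769-P alone, and IFIT3, OAS2, HERC6 and XAF1 in neither, which by itself shows no difference between the lines. GBP1 and IFI44 were lower in 1 line each. Over the 32 genes the changes of the lines correlated at r = 0.84, and at 0.65 without GBP2, beside 0.76 over all genes.

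**Figure D5:**
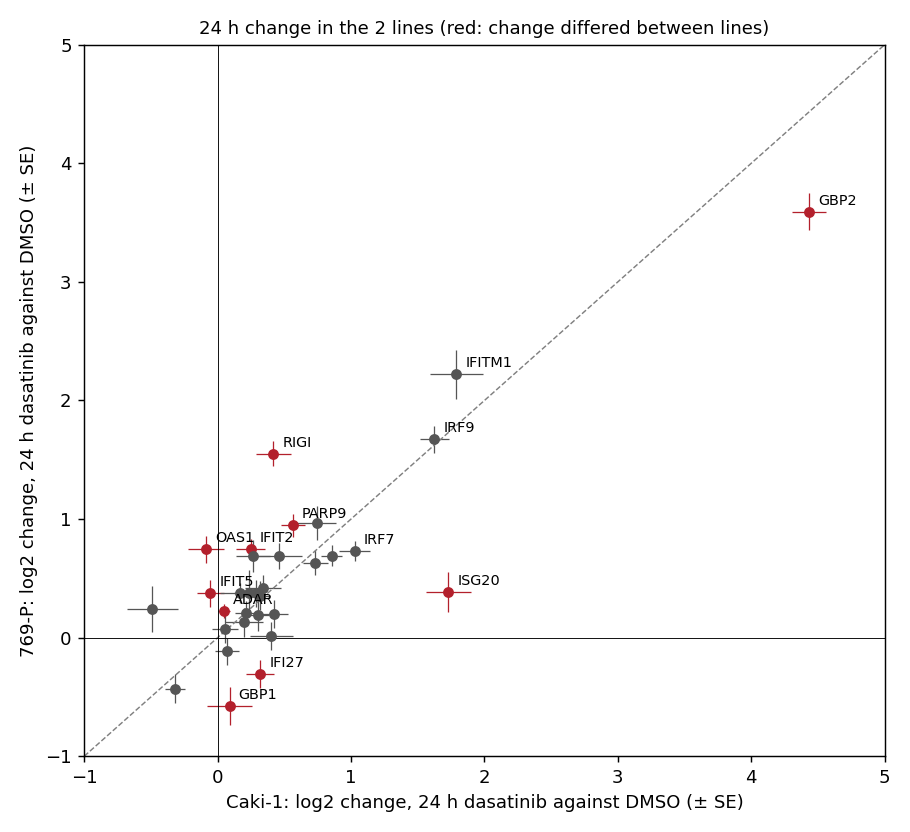
Log2 change at 24 h in 769-P against that in Caki-1 for the 32 members tested in both lines, with standard errors as bars and the line of equal change dashed. GBP2 lies farthest out at 4.43 and 3.59, RIGI lies on the 769-P side and ISG20 on the Caki-1 side.

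The difference between the lines was tested itself over 34 members, subtracting the 769-P change from that of Caki-1. At 6 h 1 member differed, RIGI (-0.79 ± 0.174, adjusted p = 0.00399), and none was called in the Caki-1 direction, when 4.42% and 3.68% of all genes were called in these directions. At 12 h 4 members changed more toward higher values in Caki-1 and 3 in 769-P, beside 8.67% and 10.3% of all genes. At 24 h these numbers were 4 and 6 beside 13.8% and 22.1%. RIGI kept its difference at 12 h (-1.11 ± 0.174) and at 24 h (-1.13 ± 0.174, adjusted p = 1.96e-05). ISG20 differed by 1.34 ± 0.248 at 24 h (adjusted p = 0.000158), GBP2 by 0.84 ± 0.214 (adjusted p = 0.00329), OAS1 by -0.83 ± 0.181 (adjusted p = 0.000889) and IFI27 by 0.62 ± 0.159 (adjusted p = 0.00348). GBP2 started lower in Caki-1, and OAS1 started lower in 769-P. IRF9 differed by -0.05 ± 0.162 at 24 h (adjusted p = 0.841), IRF1 by 0.11 ± 0.158 (adjusted p = 0.605) and IRF7 by 0.30 ± 0.141 (adjusted p = 0.105). At 12 h IRF7 differed by 0.43 ± 0.141 (adjusted p = 0.0339), a call lost when any of 8 of the 12 arrays was left out.

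Genes around the members were read from 4 lists, at 24 h, when 32.9% of all genes were higher and 29.9% lower in Caki-1 and 31.1% and 24.6% in 769-P. Of the 7 interferon genes with a single-gene probe set, only IFNE, an epithelial interferon, was above the filter. It rose at 24 h by 2.34 ± 0.118 in Caki-1 (adjusted p = 4.78e-10) and 0.94 ± 0.256 in 769-P (adjusted p = 0.00508). Its DMSO means, 5.25 and 4.83, were under the filter, so only a rise could be called. The other 6, IFNA2, IFNB1, IFNG, IFNK, IFNL1 and IFNW1, read 3.26 to 4.99 in Caki-1 and 3.12 to 4.94 in 769-P over all arrays. With the receptors, 5 of 7 tested genes rose in Caki-1 and 4 of 6 in 769-P, and none fell. The tested genes include IFNE, and in Caki-1 also IFNLR1, whose DMSO arrays read 5.00, 5.51 and 5.36 with a mean under the filter. For both, a rise was the only large change open, so that none fell was partly set by the filter. The interferon gamma receptor subunit IFNGR1 rose by 0.68 ± 0.079 and 0.80 ± 0.087, IL10RB, a subunit of the type III receptor, by 0.63 ± 0.086 in Caki-1, and the type I receptor subunit IFNAR1 by 0.39 ± 0.099 in 769-P.

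Of the kinases and feedback regulators, 7 of 11 tested rose and none fell in Caki-1 at 24 h. In 769-P 5 of 10 rose and 2 fell. SOCS1, an inhibitor of JAK kinases, rose by 1.23 ± 0.220 in Caki-1, from a DMSO mean under the filter, and JAK2 by 1.13 ± 0.105. SOCS3, another inhibitor, rose by 0.87 ± 0.127 in Caki-1 and 0.64 ± 0.180 in 769-P. STAT3 rose by 0.72 ± 0.069 in 769-P, and TRIM25, a ligase that activates RIGI, fell by 0.82 ± 0.160 there. Among upstream sensors and adaptors, 4 of 8 tested rose and 1 fell in Caki-1, led by IKBKE (0.89 ± 0.091), DHX58 (0.88 ± 0.112) and MAVS (0.47 ± 0.105). In 769-P 2 of 9 rose and 1 fell: TLR3 (0.89 ± 0.134, from a DMSO mean under the filter) and DHX58 (0.74 ± 0.108) rose, and CGAS, the DNA sensor, fell by 0.93 ± 0.137.

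A list of further interferon-stimulated genes outside the 41 was read in the same way. Of those tested, 17 of 33 rose and 5 fell in Caki-1 (median 0.33), and 9 of 29 rose and 6 fell in 769-P (median 0.06, beside 0.38 for the members). In 769-P these shares were near those of all genes. In Caki-1 the largest were PNPT1, a mitochondrial exonuclease, which fell by 2.15 ± 0.115, EPSTI1, which rose by 1.65 ± 0.131, and TRIM14, a MAVS adaptor, which fell by 1.49 ± 0.113. In 769-P they were TRIM14, which fell by 1.29 ± 0.130, TRIM38 (1.04 ± 0.193) and SHFL, an inhibitor of frameshifting (1.00 ± 0.104). In both lines this list held genes that fell beside genes that rose.

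Markers of other cells were read beside these results. In Caki-1 3 of 4 fibroblast markers (LUM, DCN and COL1A1) were above the filter and all 3 rose at 24 h. DMSO arrays of LUM (5.07 to 5.15) and DCN (4.94 to 5.05) were under it, so a rise was the only large change open to them. The summed linear signal of the 4 markers went from 179 to 203 under DMSO to 500 to 573 at 24 h. In 769-P it was 89.2 to 101 under DMSO and 91.9 to 99.8 at 24 h, with none of the 4 above the filter. Of 6 leukocyte markers, 3 were above the filter in Caki-1 and 2 in 769-P. Sums of the 6 were 200 to 213 under DMSO and 179 to 187 at 24 h in Caki-1. In 769-P they were 148 to 164 and 141 to 162. In Caki-1 CD14 read 5.96, 6.41 and 6.21 under DMSO and 5.30, 5.12 and 5.21 at 24 h, the latter under the filter. No other leukocyte marker had all 24 h arrays below its DMSO arrays in Caki-1. Of 3 endothelial markers 2 were above the filter in each line, with sums of 116 to 131 under DMSO and 168 to 191 at 24 h in Caki-1, and 125 to 130 and 130 to 141 in 769-P. Sums of the 7 renal epithelial markers were 9690 to 9863 under DMSO and 7972 to 8349 at 24 h in Caki-1. In 769-P they were 10933 to 11942 and 8152 to 8995. The renal markers did not all share this fall. All 24 h arrays of PAX8 and CDH6 lay above their DMSO arrays in both lines, as did those of KRT19 in Caki-1 and of PAX2 and KRT8 in 769-P. Those of LHX1 and KRT18 lay below in both lines, as did those of KRT8 in Caki-1 and of KRT19 in 769-P. PAX2 overlapped in Caki-1. The part of the fibroblast and endothelial markers in the Caki-1 changes was not tested.

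Sequence and change were set side by side last. Of the 20 members with a window that were called higher at 24 h in at least 1 line, 13 held the element core (65%). TTCNNNGAA stood in 7 of the 20. DTX3L and PARP9, both among the 13, share 1 core. Of the 12 measured members with a window that were not called higher, 10 held the element core (83.3%) and 2 held TTCNNNGAA. BST2, MX1, OAS3 and RSAD2, all among the 10, were under the filter in both lines and were not tested. This set therefore mixes genes that could not be called with genes tested and not called higher. The letters of the response element were thus common in both sets of members, including the dim genes MX1 and RSAD2 and the falling EIF2AK2.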

How the data were processed

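Total RNA of 24 cultures was amplified from the 3′ end, labelled with biotin and hybridised to PrimeView arrays, per the labels' protocols. The authors deposited 1 log2 signal for each probe set on each array. The submitters' processing notes name MAS5, and its version and settings are not given in the sources used here. Values run from 2.80 to 15.19. PrimeView carries only perfect-match probes, so how MAS5 was applied is unclear, and raw intensities were not used here. The number of arrays limits the precision.

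Of 49395 probe sets, 102 controls were dropped. The platform annotation, updated through Entrez identifiers, gave 44988 probe sets with exactly 1 gene, 1832 with several and 2473 without an entry. Gene places and promoters are from RefSeq, GRCh38.p14. A gene entered the tests of a line when its average there exceeded the 40th percentile of probe set means (5.38 in Caki-1, 5.36 in 769-P), which left 12423 and 12354 genes. Tests over both lines needed this in 1 line and covered 12864 genes.

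Changes were tested with limma 3.58.1 under R 4.3.3 (moderated test, intensity trend, group means), on the 12 arrays of a line or all 24 for contrasts between lines, with Benjamini-Hochberg adjustment over all genes. Called means an adjusted p under 0.05. The procedure was tested on simulated data.

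The members and lists were chosen with earlier results of these data known. Named with values were the 5 largest rises and falls among called members in each comparison, IRF1, IRF7 and IRF9, and, outside the members, the 3 largest called changes of each list at 24 h. Array values were given for the 3 largest changes at 24 h and for IRF9. Values named beyond this rule were chosen after they were seen. IFNA1, IFNL2, IFNL3 and TDRD7 had no single-gene probe set either.

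The labels number the replicates 1 to 3 in every group. Deviations of same-numbered arrays correlated above 0.1 in all 3 pairs only in 769-P, for 6 h with DMSO (0.11 to 0.36), for 24 h with DMSO (0.12 to 0.17) and for 24 h with 6 h (0.10 to 0.19), and the labels do not say what a number shares. Alternatives were other filters, quantile normalization, median centring, averaging a gene's probe sets, no trend, other sets of arrays in the fit, the replicate number as a block, and leaving out each array.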

Additional observations from a re-analysis of the deposited data

Results flagged for a closer look

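The change under dasatinib differed between the lines by the limma test of that difference for the following members, given in log2 with the 769-P change subtracted from that of Caki-1. RIGI differed at 6 h by -0.79, at 12 h by -1.11 and at 24 h by -1.13, with the larger rise in 769-P. ISG20 differed by 0.74 at 12 h and 1.34 at 24 h, with the larger rise in Caki-1. GBP2 differed by 0.69 at 12 h and 0.84 at 24 h, on a rise in both lines. With the mean of all probe sets the 12 h difference of GBP2 was 0.34 and not called, and it was also lost when any of 6 of the 12 arrays was left out. GBP1 differed by 0.87 at 12 h and 0.67 at 24 h. IRF7 differed by 0.43 at 12 h. IFIT1 differed by -0.79 at 12 h, and IFIT2 by -0.42 at 12 h and -0.50 at 24 h, the latter -0.15 and not called with the mean of all probe sets. At 24 h OAS1 differed by -0.83, IFIT5 by -0.43 and PARP9 by -0.38, all with the higher change in 769-P, and IFI27 by 0.62. ADAR, with a smaller difference of -0.18, was called at 24 h too, which makes 1, 7 and 10 members of 34 at 6, 12 and 24 h. Over all 12864 genes 3.68%, 8.67% and 13.8% were called toward Caki-1 at these times, and 4.42%, 10.3% and 22.1% toward 769-P. The counts of members were thus near or under the share of all genes.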

How the results depend on the processing

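No call among the named changes reversed direction, and the direction of the other members' calls was not followed. Of 1617 alternative values of 103 named changes, 1498 stayed on their side of the threshold, 111 lost their call (82 of them with 1 array left out) and 8 gained one. Apart from leaving out arrays, the number of members called moved by more than 1.5 times only in the difference between lines at 6 h. It went from 1 to 2 with the mean of all probe sets and to 3 with the replicate block. With the replicate number as a block the counts were otherwise 11, 20 and 21 in Caki-1 at 6, 12 and 24 h, 14, 20 and 23 in 769-P, 16 and 16 for 24 against 6 h, 9 and 12 for the differences at 12 and 24 h, and 23 under DMSO, and no named call changed.

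Leaving out each array gave 5 to 8, 15 to 20 and 16 to 22 members in Caki-1 at 6, 12 and 24 h, and 10 to 15, 15 to 19 and 19 to 25 in 769-P. It gave 11 to 16 and 9 to 16 for 24 against 6 h, and 21 to 23 under DMSO. For the difference at 6 h it gave 1 to 2, the latter without replicate 1 of Caki-1 at 6 h or replicate 2 or 3 of 769-P DMSO. At 12 h it gave 3 to 6, with 3 without replicate 3 of Caki-1 at 12 h and 4 without replicate 2 of Caki-1 DMSO, 3 of 769-P DMSO or 2 of 769-P at 12 h. At 24 h it gave 6 to 11, the former without replicate 3 of Caki-1 DMSO. Calls lost with single arrays were IFIT5 and ISG20 in Caki-1 at 6 h, EIF2AK2 and IRF1 in Caki-1 and EIF2AK2 in 769-P at 12 h, IFI44 in Caki-1 and IFI27 in 769-P at 24 h, GBP1 in 769-P at 6 h, and IRF7 and IFIT1 in 769-P for 24 against 6 h. Among differences between lines these were IFIT2, ISG20, GBP2 and IRF7 at 12 h and GBP1, IFIT5 and PARP9 at 24 h. With the mean of all probe sets IFI27 in 769-P at 24 h was -0.07, and the differences were 0.34 for GBP2 at 12 h and -0.15 for IFIT2 at 24 h, none past the test. The cause of these losses was not tested.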
